A study of Mus musculus with 278 samples.

Results

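Expression of 10 Wnt pathway genes was followed in single cells from the mammary epithelium of FVB/NJ mice (10 of the 25138 genes kept for analysis). The set was given by name and was matched to the count tables through Entrez identifiers. It held 5 ligands (Wnt4, Wnt5a, Wnt5b, Wnt6 and Wnt10a), the receptor Fzd1, the secreted modulators Sfrp1 and Dkk3, the nuclear factor Tcf7l2 and the target gene Axin2. From adult mice there were 112 libraries of a basal sort and 43 of a luminal sort, and pregnant mice gave 123 libraries of unseparated epithelium. Per the study, the adult mice were 10-week-old females and the pregnant mice were at mid-pregnancy. Each library was 1 cell, caught in its own chamber of a Fluidigm C1 chip, where its RNA was turned into cDNA. With 50000 or more reads (reads assigned to kept genes), 85 adult basal, 41 adult luminal and 96 pregnancy cells were used. Per the study's methods, the adult cells were gated as lineage-negative CD24+ cells with high CD29 (basal) or low CD29 (luminal), and no treatment or transgene is given for any group. The labels name no animal, and every group therefore had to be treated as a single sample. Differences are given without a test, a replicate check or a p-value.

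Wnt proteins are secreted, lipid-modified ligands that bind Frizzled receptors together with co-receptors. In the canonical branch the signal stabilises beta-catenin, which joins TCF and LEF factors on DNA and raises the transcription of targets such as Axin2, itself an inhibitor of the pathway. Other ligands, among them Wnt5a, act largely through branches that do not need beta-catenin, and secreted proteins of the Sfrp family hold ligands away from their receptors. In the mammary gland the basal layer is contractile, the luminal layer lines the ducts, and hormone-sensing (mature) luminal cells carry the receptors for oestrogen and progesterone. Wnt4 is known there as a paracrine ligand that progesterone induces in hormone-sensing cells.

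The genes lie at the following places on GRCm38, the build to which the reads were mapped. Wnt4 is at chr4:137277635-137299501, Wnt5a at chr14:28504543-28527448 and Wnt5b at chr6:119432531-119544824. Wnt6 (chr1:74754342-74785322) and Wnt10a (chr1:74792019-74804176) are neighbours, with 6696 bases between them. The other genes are Axin2 (chr11:108917828-108950783), Sfrp1 (chr8:23411383-23449632), Dkk3 (chr7:112116019-112159482), Fzd1 (chr5:4753839-4758216) and Tcf7l2 (chr19:55741797-55933659). RefSeq promoter windows of this build were matched for 6 of the 10 genes (Wnt4, Wnt5b, Wnt6, Axin2, Fzd1 and Tcf7l2), with 9 windows in all.

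4 of these windows are shown because their genes are the ligand that was highest in luminal over basal cells (Wnt4), a ligand found in basal cells and not in luminal ones (Wnt6), a ligand found in both lineages (Wnt5b) and the pathway's target (Axin2). Each is the 250 bases before the start of a transcript, 5′ to 3′ on the gene's strand. They are chr4:137277385-137277634 (plus strand), chr1:74771642-74771891 (plus strand), chr6:119449387-119449636 (minus strand) and chr11:108920099-108920348 (plus strand). Wnt5b also had other windows, at other transcript starts, and the one shown is the only one of them with a TCF/LEF match. Capitals mark a TCF/LEF motif (CTTTGAT, or ATCAAAG on the other strand) or a steroid receptor half-site (TGTTCT, or AGAACA on the other strand). The half-site is that of the progesterone and glucocorticoid type of receptor, and oestrogen receptor half-sites were not searched.
Wnt4: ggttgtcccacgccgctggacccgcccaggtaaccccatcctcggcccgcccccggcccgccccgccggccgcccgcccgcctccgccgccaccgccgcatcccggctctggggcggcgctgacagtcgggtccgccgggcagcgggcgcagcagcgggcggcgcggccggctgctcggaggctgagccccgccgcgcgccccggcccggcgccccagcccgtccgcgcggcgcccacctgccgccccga
Wnt6: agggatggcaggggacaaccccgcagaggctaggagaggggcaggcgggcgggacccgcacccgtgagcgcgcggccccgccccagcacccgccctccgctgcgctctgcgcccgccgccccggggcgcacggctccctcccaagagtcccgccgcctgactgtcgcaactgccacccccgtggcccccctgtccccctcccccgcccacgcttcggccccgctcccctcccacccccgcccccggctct
Wnt5b: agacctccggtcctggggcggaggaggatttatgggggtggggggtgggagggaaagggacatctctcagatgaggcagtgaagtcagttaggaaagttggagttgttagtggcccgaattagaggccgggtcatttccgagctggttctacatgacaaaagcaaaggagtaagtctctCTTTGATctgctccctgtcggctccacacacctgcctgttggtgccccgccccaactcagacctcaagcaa
Axin2: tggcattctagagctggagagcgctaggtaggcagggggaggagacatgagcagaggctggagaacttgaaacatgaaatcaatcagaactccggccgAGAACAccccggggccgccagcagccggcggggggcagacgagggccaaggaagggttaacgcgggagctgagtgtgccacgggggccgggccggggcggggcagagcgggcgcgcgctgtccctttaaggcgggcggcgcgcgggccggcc
The TCF/LEF letters were found once in this Wnt5b window and in none of the other 8 windows of the set, against 3.21% of all 32851 windows. The half-site was found in this Axin2 window, in another Wnt5b window and in a Tcf7l2 window, against 16.1% of all windows. A match of letters is a description of the sequence and not a bound site.

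Sequencing depth differed between the groups. A used cell of the adult basal sort had a median of 378525 reads (67174 to 1290896), one of the adult luminal sort 638066 (173198 to 1006648) and one from pregnancy 215231 (53967 to 790450). Shares of cells that detected a gene (1 or more reads) are therefore given after every cell was thinned to 50000 reads. All intervals are exact 95% intervals, Poisson for summed levels, Clopper-Pearson for shares and conditional binomial for ratios. Those of levels and ratios take reads as independent counts, and those of shares take cells as independent draws. Reads were amplified without molecular identifiers, so the intervals of levels and ratios can be too narrow even for counting error. None of the intervals covers differences between animals. Levels are CPM, the usual scaling of read counts to a common total (here of kept reads), summed over the cells of a group unless a single cell is named. Adult basal cells detected a median of 11 of 12 basal markers such as Krt5, Krt14 and Acta2, and adult luminal cells a median of 10 of 12 luminal markers such as Krt8 and Epcam.

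Pregnancy cells were not sorted by lineage, so they were divided by the markers they detected. A cell was basal-marked when the basal markers exceeded the luminal ones by 3 or more of 12, luminal-marked in the opposite case and undecided otherwise, which gave 45, 28 and 23 cells. These classes are ranges of a score and not cell types, and 11 basal-marked and 3 luminal-marked cells lay within 1 marker of the threshold. The luminal-marked cells detected a median of 10 luminal and 1 basal markers and the basal-marked cells a median of 11 basal and 4 luminal markers. 6 or more markers of both lists were detected in 15 basal-marked, 1 luminal-marked and 20 undecided cells, against 2 adult basal and 1 adult luminal cells. No doublet caller was run, and the study inspected captured cells by microscope. Adult luminal cells were divided in the same way by 12 mature luminal markers (such as Esr1, Pgr, Prlr and Cited1) and 12 progenitor markers (such as Kit, Elf5 and Aldh1a3), which gave 24 mature luminal-marked, 4 progenitor-marked and 13 undecided cells, of which 7, 1 and 8 lay within 1 marker of the threshold. Of the pregnancy luminal-marked cells, 24 were progenitor-marked and 3 mature luminal-marked, so the luminal cells of the 2 stages differ in makeup. Pregnancy values are also given by title number (up to 55 and from 56 on), a split placed with earlier results of these data known, because the number of genes detected differed between these cells. The labels do not say what the numbers mark. The 2 parts also differed in milk protein genes. These took 1.37% (up to 55) and 20.1% (from 56 on) of the reads of basal-marked cells. In luminal-marked cells they took 14.8% and 35.6%.

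Markers of other cell types were present in some libraries. 3 or more markers of 1 other cell type (endothelial, immune, fibroblast, pericyte or Schwann) were detected in 1 adult basal, 6 adult luminal, 10 pregnancy basal-marked and 6 pregnancy luminal-marked cells. The 5 basal-marked and 3 luminal-marked pregnancy cells with 3 or more fibroblast markers all had title numbers up to 55. All 6 fibroblast markers had reads in adult luminal, pregnancy basal-marked and pregnancy luminal-marked cells, with a summed level per cell of 0 to 30572, 0 to 39779 and 0 to 24779 CPM, and 5 of the 6 (not Lum) in adult basal cells, with 0 to 3042 CPM. The endothelial markers Cdh5, Kdr, Tie1 and Emcn had no read in adult basal cells, and the immune markers Laptm5, Coro1a and Tyrobp had none in adult luminal cells. Ratios without these libraries are given where they moved a result, and the part of other cells in a result was otherwise not tested.

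**Figure D1:**
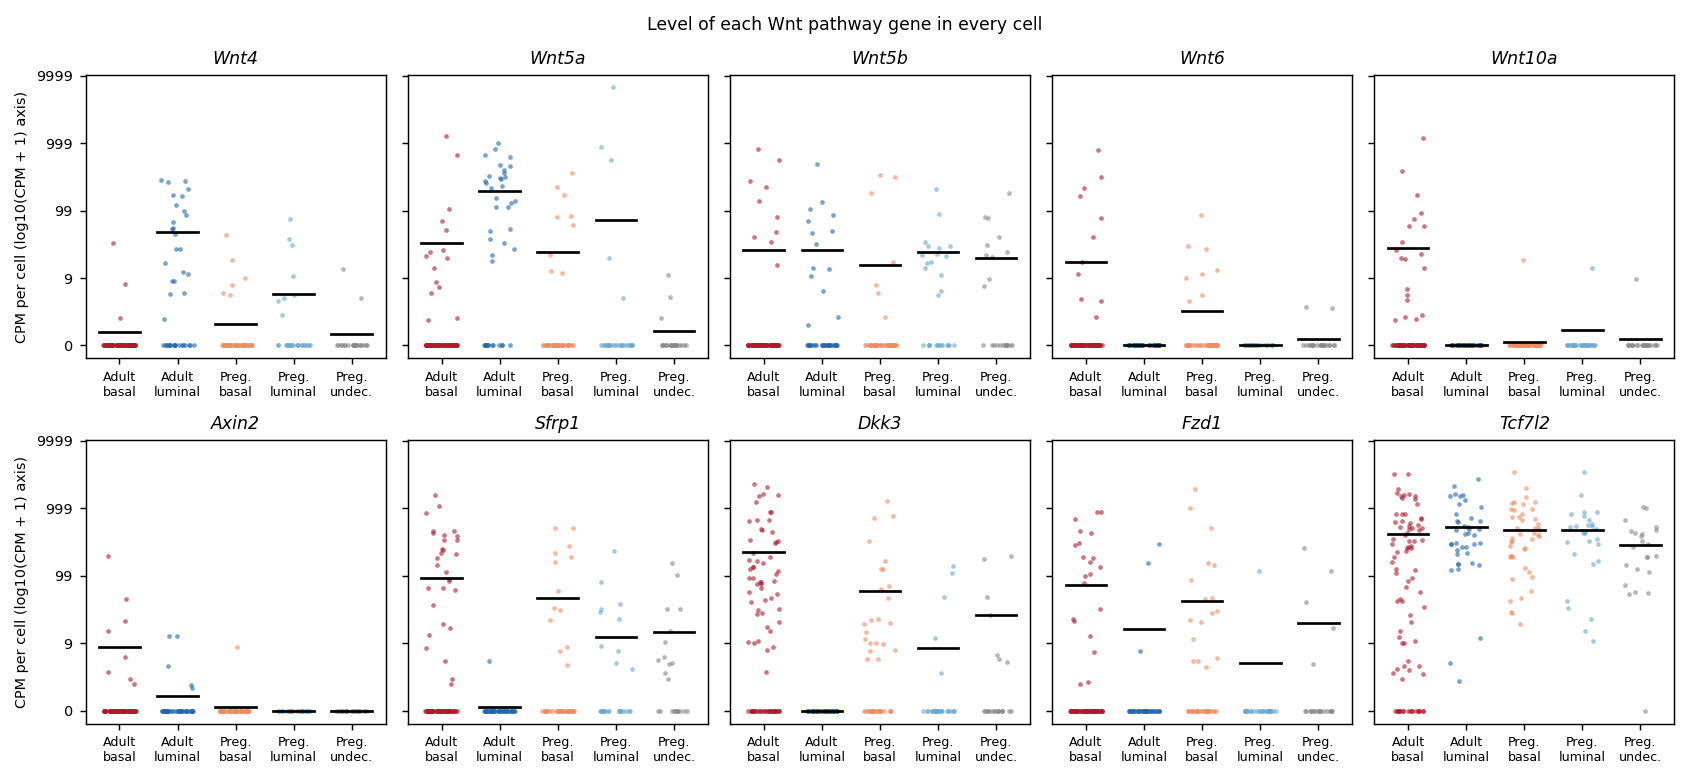
Each point is 1 cell, grouped as adult basal (n = 85), adult luminal (41), pregnancy basal-marked (45), pregnancy luminal-marked (28) and pregnancy undecided (23); the vertical axis is CPM per cell on a log10(CPM + 1) scale and the black bar is the summed level of the group. Wnt4 points lie mostly in adult luminal cells, Wnt6, Wnt10a and Dkk3 have no point above 0 in adult luminal cells, and Tcf7l2 is high in every group.

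Wnt4 was a gene of adult luminal cells. It reached 47.6 CPM there (44.9 to 50.4), against 0.560 CPM in adult basal cells (0.342 to 0.865). Among luminal cells the lowest value was 0, the median 4.94 and the highest 287 CPM, and 17 of 41 thinned cells detected it (41.5%, 26.3 to 57.9, and 56.1% without thinning). Among adult basal cells the median was 0 and the highest 32.6 CPM, 1 of 85 thinned cells detected it (1.18%, 0.0298 to 6.38), and 1 cell held 90.0% of its 20 reads. The ranges overlapped from 0 to 32.6 CPM, and 3 basal cells in all had any read. The log2 ratio of basal over luminal cells was -6.41 (-7.13 to -5.78).

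Within the adult luminal cells, Wnt4 lay on the hormone-sensing side. The 24 mature luminal-marked cells had 61.4 CPM (57.6 to 65.4), and the 4 progenitor-marked cells had no read, which puts the log2 ratio at 5.16 or more. Detection was more frequent with a higher number of mature luminal markers that a cell detected. It was seen in 0 of 7 cells with 0 to 3 markers, 1 of 6 with 4 to 6, 6 of 16 with 7 to 9 and 10 of 12 with 10 to 12 markers (83.3%, 51.6 to 97.9). Markers and Wnt4 were both counted in the same thinned cells. These detected a median of 2499 genes when progenitor-marked, 3448 when mature luminal-marked and 3630 when undecided. The part of this difference in the Wnt4 shares was not tested. Among cells that detected Pgr, the progesterone receptor gene, 13 of 24 detected Wnt4 (54.2%, 32.8 to 74.4), against 4 of 17 cells that did not (23.5%, 6.81 to 49.9), with levels of 76.2 and 7.45 CPM. For Esr1, the oestrogen receptor alpha gene, the shares were 14 of 26 and 3 of 15. Pgr and Esr1 are among the 12 mature luminal markers, so these shares are not separate from the marker counts.

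In the pregnancy cells Wnt4 was low in each class. Its level was 4.74 CPM in luminal-marked cells (3.27 to 6.66), where 5 of 28 thinned cells detected it (17.9%, 6.06 to 36.9), and 1.08 CPM in basal-marked cells (0.495 to 2.06). The highest luminal-marked cell had 73.1 CPM, and the median was 0 in both classes. Pregnancy luminal-marked over adult luminal cells gave a log2 ratio of -3.33 (-3.87 to -2.83), with -2.84 for title numbers up to 55 and -3.75 from 56 on. Within the mature luminal-marked cells of both stages it was -3.81, from 1 read in 3 pregnancy cells. Within the progenitor-marked cells the direction turned, since the 4 adult cells had no read and the 24 pregnancy cells 32 reads (4.92 CPM), a log2 ratio of 1.52 or more. The change in the makeup of the luminal cells and a change in level within a cell type cannot be told apart in the pooled value.

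**Figure D2:**
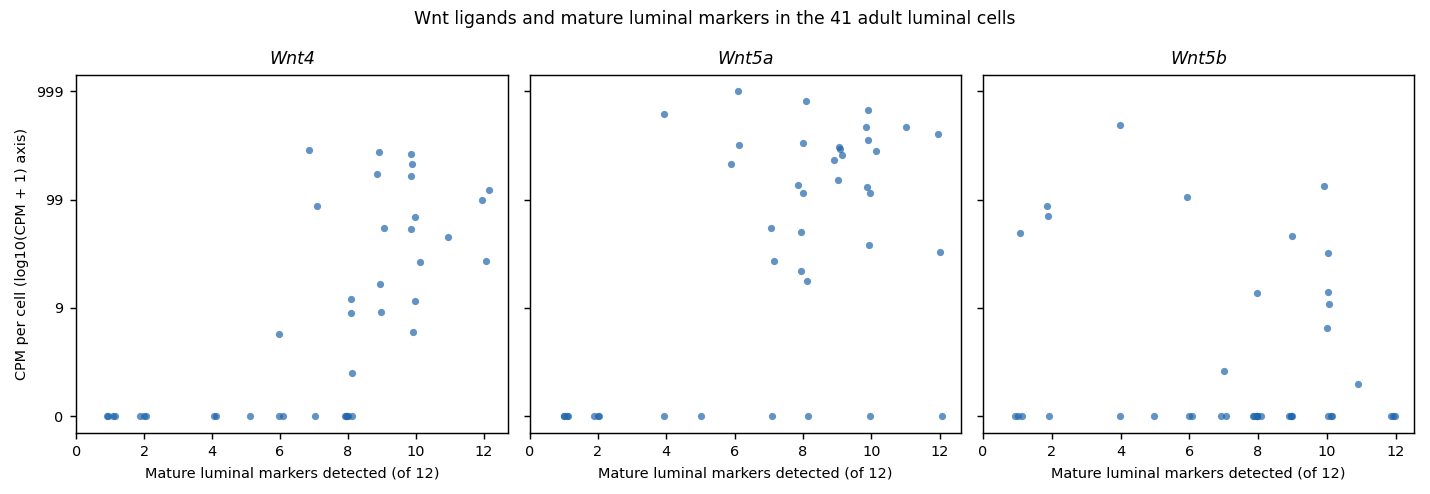
Each point is 1 of the 41 adult luminal cells; the horizontal axis is the number of 12 mature luminal markers detected at 50000 reads, and the vertical axis is CPM per cell on a log10(CPM + 1) scale. Wnt4 and Wnt5a are at 0 in all 7 cells with 0 to 3 markers, while Wnt5b was detected in 3 of those 7 thinned cells.

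Wnt5a, a ligand known for beta-catenin-independent signalling, was the most abundant of the 5 ligands in adult luminal cells per length of exon. Its level was 193 CPM (187 to 198), with a median of 114 and a highest value of 1008 CPM per cell, and 26 of 41 thinned cells detected it (63.4%, 46.9 to 77.9). The median adult basal cell had 0 CPM, and 6 of 85 thinned cells detected it (7.06%, 2.63 to 14.7). The sum over basal cells still came to 32.1 CPM (30.2 to 34.0), because 1 cell (number 93, with 1263 CPM and all 12 basal markers) held 76.1% of the reads. The log2 ratio of basal over luminal cells was -2.59 (-2.68 to -2.49), and -4.51 when the cell with the most reads was left out of each group.

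Like Wnt4, Wnt5a had no read in the 4 progenitor-marked adult cells, against 251 CPM (243 to 258) in the mature luminal-marked ones, a log2 ratio of 7.19 or more. Wnt5a was detected in 0 of 7 cells with 0 to 3 mature luminal markers, 4 of 6 with 4 to 6, 13 of 16 with 7 to 9 and 9 of 12 with 10 to 12. In the 6 cells with 4 to 6 markers its share was 66.7% (22.3 to 95.7), against 16.7% (0.421 to 64.1) for Wnt4. These intervals overlap, so whether Wnt5a is detected at fewer markers than Wnt4 cannot be read from these cells. By Pgr, Wnt5a was detected in 18 of 24 cells with it and 8 of 17 without. For Esr1 the Wnt5a shares were 20 of 26 and 6 of 15. In thinned adult luminal cells, 14 of the 17 cells with Wnt4 also had Wnt5a, which 26 of all 41 cells had.

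Wnt5a in pregnancy rested on few cells. The luminal-marked cells summed to 71.3 CPM (65.2 to 77.9), yet 4 of 28 thinned cells detected it (14.3%, 4.03 to 32.7) and the median was 0. The 3 mature luminal-marked cells of that class had 558, 880 and 6689 CPM, and they held nearly all of the reads, whereas the 24 progenitor-marked cells had 0.769 CPM (0.25 to 1.79). All 3 had title numbers from 56 on, and the luminal-marked cells with numbers up to 55 had 1.84 CPM (0.598 to 4.30). The cell with 6689 CPM (number 70) was the shallowest of all pregnancy cells used, with 53967 reads. The log2 ratio of pregnancy luminal-marked over adult luminal cells was -1.43 (-1.57 to -1.30) and turned to 3.10 within the mature luminal-marked cells of both stages. Basal-marked pregnancy cells had 23.2 CPM (20.1 to 26.7), with 8 of 45 cells detecting it (17.8%, 8.00 to 32.1). One of them (number 98) held 49.7% of these reads and detected 9 mature luminal markers beside all 12 basal ones. The stage ratio of basal cells was -0.47 (-0.69 to -0.25), and 0.65 when the cell with the most reads was left out of each group.

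Wnt5b, the closest relative of Wnt5a, had similar summed levels in the 2 adult lineages. Adult basal and adult luminal cells had 25.4 (23.7 to 27.1) and 24.6 CPM (22.7 to 26.7), and the log2 ratio was 0.04 (-0.11 to 0.19). The medians were 0 in both groups, and the highest cells had 822 and 488 CPM. Thinned shares were 9 of 85 (10.6%, 4.96 to 19.2) and 8 of 41 (19.5%, 8.82 to 34.9), intervals that overlap. Without thinning the shares were 11.8% of basal and 34.1% of luminal cells. Within the adult luminal cells Wnt5b lay on the side away from Wnt4 and Wnt5a. It had 49.3 CPM (39.4 to 60.8) in the 4 progenitor-marked cells, 2 of which had 48.4 and 85.4 CPM and the remaining cells 0, and 10.3 CPM (8.77 to 12.0) in the mature luminal-marked cells, a log2 ratio of -2.26 (-2.64 to -1.86). The cell with 85.4 CPM (number 11) detected 4 of 6 fibroblast markers, and without such cells the ratio was -0.78.

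At pregnancy Wnt5b was the ligand found in the largest share of luminal-marked cells. It was detected in 11 of 28 (39.3%, 21.5 to 59.4, and 53.6% without thinning), at 23.6 CPM (20.1 to 27.5) with a median of 5.06 and a highest value of 206 CPM. All 11 were among the 24 progenitor-marked cells, and the 3 mature luminal-marked cells had no read. Basal-marked cells had 14.8 CPM (12.3 to 17.7), and 4 of 45 detected it (8.89%, 2.48 to 21.2). The nearest ends of the 2 intervals, 21.2 and 21.5, lie close, and cells are not replicates, so no test is read from them. By title number (up to 55 and from 56 on), basal-marked shares were 2 of 23 and 2 of 22. Those of luminal-marked cells were 6 of 12 and 5 of 16. The log2 ratio of basal-marked over luminal-marked cells was -0.67 (-1.02 to -0.33). The undecided cells, with a median of 10 basal and 9 luminal markers, had 18.8 CPM (15.9 to 22.1). Of these, 9 of 23 detected Wnt5b (39.1%, 19.7 to 61.5), a share like that of the luminal-marked cells. One cell (number 9) held 60.2% of the basal-marked reads, and cell 61 held 39.7% of the adult basal ones. The stage ratios were -0.78 (-1.06 to -0.50; -1.35 without the cell with the most reads of each group) in basal and -0.06 (-0.32 to 0.19) in luminal cells, and TMM scaling turned the luminal value to 0.54.

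Wnt6 and Wnt10a, the neighbours on chromosome 1, were basal genes. Both had no read in the 41 adult luminal cells (0 of 41 cells, which allows a share of up to 7.32% when 3 counts stand for 0, and 8.60% by the exact interval). In adult basal cells Wnt6 summed to 16.4 CPM (15.1 to 17.8) with a highest cell of 783 CPM, and Wnt10a to 26.5 CPM (24.9 to 28.3) with a highest cell of 1201 CPM. The medians were 0, and 7 of 85 (8.24%, 3.38 to 16.2) and 10 of 85 thinned cells (11.8%, 5.79 to 20.6) detected them, so both were absent from the reads of most basal cells. The log2 ratios of basal over luminal cells were 7.08 or more and 7.78 or more. One cell (number 4) held 58.9% of the Wnt10a reads, and without the cell with the most reads the bound was 6.52. Of the Wnt6 reads, 82.1% came from cells 39, 4 and 25.

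Some basal cells held both genes. Of the 7 thinned cells with Wnt6, 3 (numbers 4, 60 and 108) also had Wnt10a, which 10 of all 85 cells had. Their unthinned levels were 316 and 1201 CPM in cell 4, 161 and 91.9 CPM in cell 60, and 76.6 and 21.9 CPM in cell 108. The cell with the most Wnt6 (number 39, 783 CPM) had no Wnt10a read.

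Both genes had lower summed levels in basal cells at pregnancy. Wnt6 had 2.29 CPM (1.38 to 3.57) in basal-marked cells, a log2 ratio over adult basal cells of -2.84 (-3.59 to -2.19), and no read in luminal-marked cells. Its share of thinned cells was 4 of 45 (8.89%, 2.48 to 21.2) and its interval overlaps that of the adult cells. Without thinning, 8 of 45 pregnancy basal-marked (17.8%) and 11 of 85 adult basal cells (12.9%) had a Wnt6 read. The median over cells with reads was 11.2 CPM, against 39.2 CPM in the adult. Wnt10a was left with 1 read in 1 basal-marked cell (0.120 CPM, 0.00305 to 0.670), a log2 ratio of -7.79 (-13.1 to -5.30). In luminal-marked cells its 5 reads came from 1 cell (number 21), which detected 8 of 12 basal as well as 11 of 12 luminal markers. For Wnt6 the ratio was -1.98 in pregnancy cells with title numbers up to 55 and -4.02 from 56 on.

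**Figure D3:**
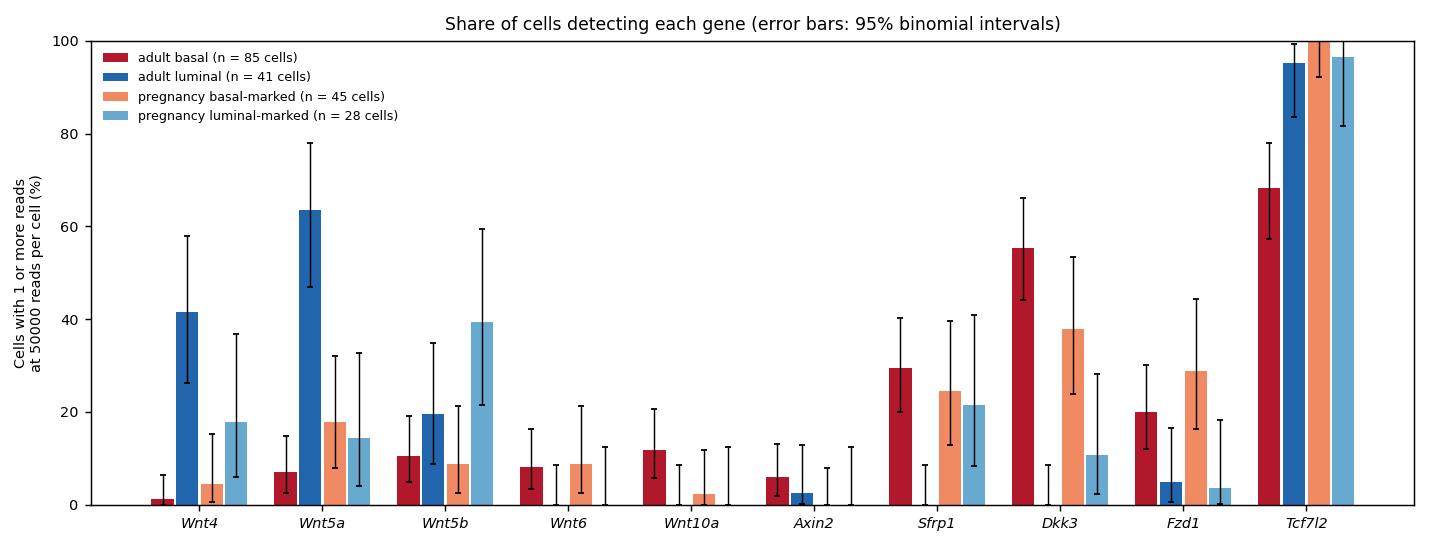
Bars give the percent of cells with 1 or more reads of each gene after thinning to 50000 reads per cell, for adult basal (n = 85), adult luminal (41), pregnancy basal-marked (45) and pregnancy luminal-marked (28) cells, with exact 95% binomial intervals. Wnt5a is highest in adult luminal cells (63.4%), Dkk3 in adult basal cells (55.3%), and Tcf7l2 reaches 95.1% or more in the 3 other groups against 68.2% in adult basal cells.

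The receptor Fzd1 and the 2 secreted modulators of the set, Dkk3 and Sfrp1, were higher in adult basal than in adult luminal cells. Dkk3, a secreted protein of the Dickkopf family, had 226 CPM (221 to 231) in adult basal cells, with a median of 29.9 and a highest value of 2263 CPM, and 47 of 85 thinned cells detected it (55.3%, 44.1 to 66.1). It had no read in any adult luminal cell, a log2 ratio of 10.87 or more. Sfrp1, which binds Wnt ligands outside the cell, had 93.4 CPM (90.3 to 96.7) in adult basal cells, with a median of 0 and a highest value of 1579 CPM, and 25 of 85 detected it (29.4%, 20.0 to 40.3). Its 3 reads in adult luminal cells came from 1 cell (number 43, which also detected 4 endothelial and 3 fibroblast markers), and the log2 ratio was 9.59 (8.05 to 11.87). Dkk3 was thus found in more of the basal cells than Sfrp1.

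At pregnancy both modulators were lower in basal-marked cells and present in luminal-marked ones. Dkk3 had 59.2 CPM (54.1 to 64.6) in basal-marked cells, where 17 of 45 detected it (37.8%, 23.8 to 53.5), a log2 ratio over adult basal cells of -1.93 (-2.07 to -1.80). The value was -3.53 for title numbers up to 55 and -1.39 from 56 on, so the size depended on that split. Sfrp1 had 45.8 CPM (41.3 to 50.7) there and 11 of 45 cells (24.4%, 12.9 to 39.5), a log2 ratio of -1.03 (-1.18 to -0.87). Neither reached 4-fold in the pooled comparison.

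In pregnancy luminal-marked cells Sfrp1 had 11.4 CPM (8.99 to 14.2) and was detected in 6 of 28 thinned cells (21.4%, 8.30 to 41.0), against 0 of 41 in adult luminal cells. Dkk3 had 7.48 CPM (5.58 to 9.80) and 3 of 28 cells (10.7%, 2.27 to 28.2), against 0 of 41. The log2 ratios over adult luminal cells were 6.55 (4.96 to 8.86) for Sfrp1 and 5.95 or more for Dkk3. Both levels were higher in title numbers up to 55 than from 56 on, at 26.1 and 1.89 CPM for Sfrp1 and 15.1 and 2.595 CPM for Dkk3. The ratios were 7.76 and 3.97 for Sfrp1, and 6.97 or more and 4.42 or more for Dkk3. The 10 luminal-marked cells with any Sfrp1 read detected 1 to 3 of 12 basal markers (median 2), against a median of 1 in the 18 cells without. The 5 cells with Dkk3 reads detected 1 to 8 basal markers (median 3), against a median of 1 in the 23 without. One cell (number 39) held 63.5% of the Dkk3 reads and detected 5 of 6 fibroblast markers; without cells carrying markers of other types the Dkk3 bound was 4.35 and the Sfrp1 ratio 6.08. Within the progenitor-marked cells of both stages the values were 2.82 or more for Sfrp1 and 1.98 or more for Dkk3, the latter short of 4-fold because 4 adult cells set the bound.

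Fzd1, a Frizzled receptor, was basal in the adult. It had 72.4 CPM (69.6 to 75.2) in adult basal cells, with a median of 0 and a highest value of 897 CPM, and 17 of 85 thinned cells detected it (20.0%, 12.1 to 30.1). Adult luminal cells had 15.1 CPM (13.6 to 16.7), of which 63.2% came from cell 11, the progenitor-marked cell with 4 of 6 fibroblast markers. The log2 ratio was 2.26 (2.10 to 2.42), and 3.49 without cells carrying markers of other types. At pregnancy Fzd1 had 40.8 CPM (36.6 to 45.4) in basal-marked and 4.03 CPM (2.68 to 5.82) in luminal-marked cells, where all 28 reads came from cell 39. Shares of basal-marked and adult basal cells were 28.9% (16.4 to 44.3) and 20.0%, and their intervals overlap. The stage ratio of basal cells was -0.83 (-0.995 to -0.66) in sums and 0.62 when every cell had the same weight, so no direction can be read.

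Axin2, the target used as a readout of canonical signalling, was scarce everywhere. Adult basal cells had 7.89 CPM (7.00 to 8.87), with a median of 0 and a highest cell of 197 CPM, and 5 of 85 thinned cells detected it (5.88%, 1.94 to 13.2). One cell (number 57) held 77.7% of the 282 reads. Adult luminal cells had 16 reads in 5 cells (0.644 CPM, 0.368 to 1.05), and the log2 ratio was 3.61 (2.89 to 4.44), or 2.46 when the cell with the most reads was left out of each group. The luminal cell with the most Axin2 reads detected 6 of 6 fibroblast markers, and without such cells the ratio was 4.40. Pregnancy cells had 1 Axin2 read among 96 cells, in a basal-marked cell. The log2 ratio of pregnancy basal-marked over adult basal cells was -6.04 (-11.34 to -3.55), and at most -2.31 when the cell with the most reads was left out of each group, which left no pregnancy read. All 5 thinned adult basal cells with Axin2 also detected Sfrp1, which 25 of all 85 did. Cells 30, 41 and 63 among them had 1 thinned Axin2 read each. Without thinning, 7 of 8 cells with Axin2 had Sfrp1 reads, which 30 of 85 had. Lgr5 was detected in 2 of the 5 thinned cells and in 29 of 85. None of the 5 detected Wnt6 or Wnt10a, while without thinning 1 and 4 of 8 cells with Axin2 did.

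Tcf7l2, a TCF factor that carries the signal on DNA, was the most abundant gene of the set and was found in both lineages. Adult basal cells had 412 CPM (406 to 419; median 121, highest 3268) and adult luminal cells 521 CPM (512 to 530; median 421, highest 2718), a log2 ratio of -0.34 (-0.37 to -0.30), and -0.04 with TMM scaling. The shares differed more than the sums. They were 58 of 85 (68.2%, 57.2 to 77.9) and 39 of 41 (95.1%, 83.5 to 99.4), with 45 of 45 (92.1 to 100) and 27 of 28 (96.4%, 81.7 to 99.9) in pregnancy basal-marked and luminal-marked cells. Without thinning, 18 of 85 adult basal cells had no Tcf7l2 read, against 0 of 45 pregnancy basal-marked cells. At 50000 reads adult basal cells detected a median of 2253 genes, against 3018 in pregnancy basal-marked and 3451 in adult luminal cells, and the part of this difference in the Tcf7l2 shares was not tested. Their summed level was 473 CPM (459 to 488), a log2 ratio of 0.20 (0.15 to 0.25) over adult basal cells. Within the adult luminal cells, the progenitor-marked cells had 1331 CPM (range 1038 to 2128 over 4 cells) and the mature luminal-marked cells 333 CPM (324 to 342), a log2 ratio of -2.0 (-2.07 to -1.93), which the study's own minimums for cells moved to -1.89.

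Compared per length of exon, as CPM per kilobase (RPKM), the order of the genes differed between lineages. In adult basal cells it ran from Tcf7l2 (90.6 RPKM) over Dkk3 (67.3), Sfrp1 (21.4), Fzd1 (16.5), Wnt10a (13.5), Wnt5b (10.7), Wnt6 (7.93), Wnt5a (7.33) and Axin2 (1.85) to Wnt4 (0.146). In adult luminal cells it was Tcf7l2 (114 RPKM), Wnt5a (44.1), Wnt4 (12.5), Wnt5b (10.4), Fzd1 (3.45) and Axin2 (0.151), with the other genes at or near 0. Counting intervals separated the neighbours in these lists except Wnt6 and Wnt5a in basal cells, while the share of reads held by single cells leaves the order among the low basal ligands to those cells. At pregnancy the basal-marked order was Tcf7l2 (104), Dkk3 (17.6), Sfrp1 (10.5), Fzd1 (9.31), Wnt5b (6.24) and Wnt5a (5.31), with the rest at 1.11 or lower, and the luminal-marked order was Tcf7l2 (104), Wnt5a (16.3), Wnt5b (9.95), Sfrp1 (2.598), Dkk3 (2.23), Wnt4 (1.24) and Fzd1 (0.920). Counting intervals of Sfrp1 and Fzd1 and of Wnt5b and Wnt5a overlap in the basal-marked cells, as do those of neighbours from Sfrp1 to Fzd1 in the luminal-marked cells.

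**Figure D4:**
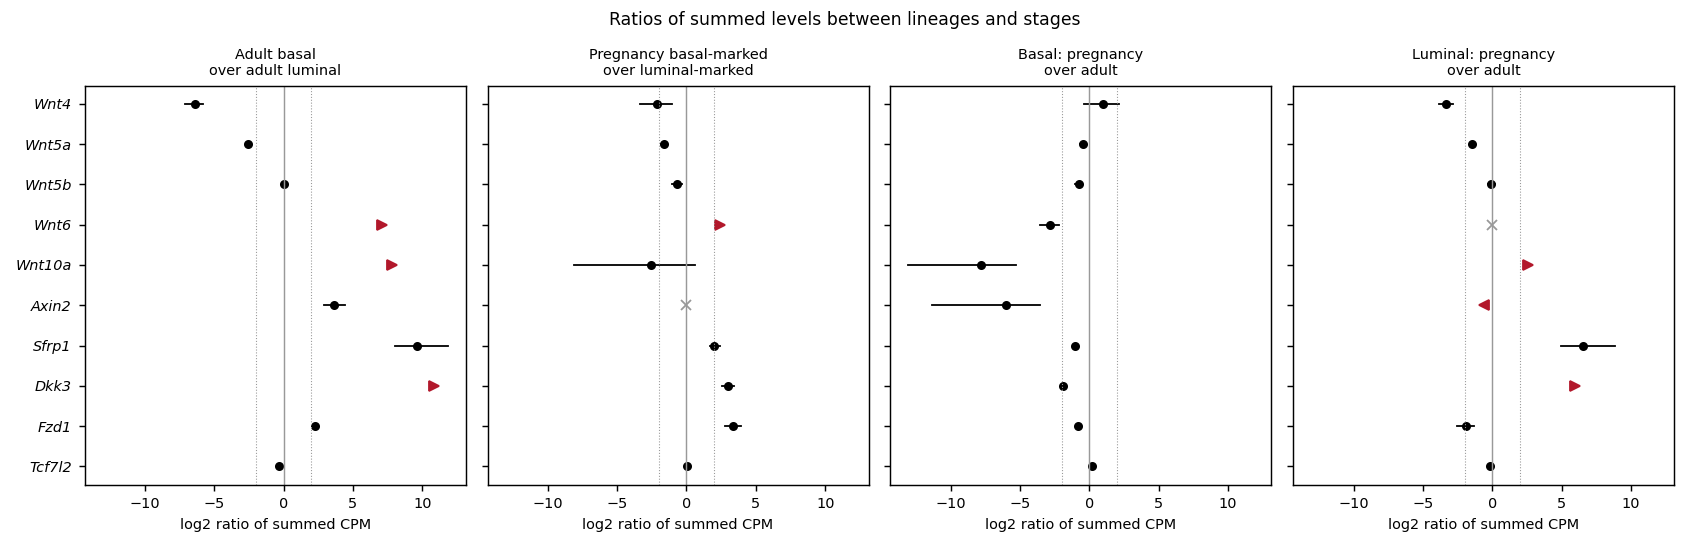
Points are log2 ratios of summed CPM for the 10 genes in 4 comparisons, with exact 95% counting intervals as bars; red triangles are bounds where 1 group had no read, grey crosses mark genes with too few reads for a ratio, and dotted lines mark 4-fold. In the adult, Wnt6, Wnt10a, Axin2, Sfrp1, Dkk3 and Fzd1 lie right of the upper dotted line and Wnt4 and Wnt5a left of the lower one.

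The first comparison asked which lineage of the adult gland carried each gene. Of the 10 genes, 6 were 4-fold or more higher in basal cells (Wnt6, Wnt10a, Axin2, Sfrp1, Dkk3 and Fzd1) and 2 were 4-fold or more lower (Wnt4 and Wnt5a), against 13.8% and 21.4% of the 15315 genes that reached 1 CPM in 3 or more cells. The genes were chosen with such results known, so the count describes the choice as well as the cells. Of 77 other genes of the pathway, 57 passed that filter, and 17 were 4-fold higher and 9 lower, with a median log2 ratio of 0.53 against -0.33 over all genes. TMM scaling added 0.30 to every ratio of this comparison. The 2 adult lineages were separate sorts, and differences between the sorts or captures cannot be told apart from lineage.

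Among receptors and co-receptors (Fzd1 included), 8 of 16 were 4-fold higher in basal cells and 3 lower, with a median log2 ratio of 1.52, beside the 13.8% and 21.4% of all genes. Of these 8, Fzd8, Fzd9 and Ror2 had 2.41, 1.595 and 0.476 CPM in basal cells and were detected in 2, 2 and 1 of 85 cells. Among extracellular inhibitors (Sfrp1 and Dkk3 included), 3 of the 10 that passed the filter were 4-fold higher in basal cells and 2 lower. Their median log2 ratio was 0.03, beside the same shares of all genes. The 2 lower ones, Sfrp4 and Dkk2, had 44.4 and 6.81 CPM in luminal cells and no read in basal cells. They were detected in 4 and 2 of 41 luminal cells. By the naming rule (10 CPM and 25% of cells in the higher group), Lgr5, a receptor for R-spondins, had 163 CPM in basal and 1.41 CPM in luminal cells (6.86, 6.38 to 7.38), and Wif1, a secreted Wnt inhibitor, 240 and 10.4 CPM (4.53, 4.35 to 4.71), the luminal reads all from 1 cell. Rspo1, an R-spondin that amplifies Wnt signals, lay in the other lineage from Lgr5, with 38.1 CPM in luminal cells and 0.0560 CPM in basal cells (-9.41, -12.46 to -7.55). Dvl3, which relays the signal inside the cell, had 33.9 and 5.82 CPM (-2.54, -2.77 to -2.32). Beyond the 5 ligands of the set, Wnt11 had 9.01 CPM in adult basal cells and 1 read in luminal cells, and Wnt2 had 4.75 CPM in luminal and no read in basal cells. One or more of 19 ligands was detected in 33 of 41 adult luminal cells (80.5%) and 36 of 85 adult basal cells (42.4%). The thinned adult luminal cells detected a median of 3451 genes and the thinned adult basal cells 2253. The part of this difference in the ligand shares was not tested.

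Between the 24 mature luminal-marked and the 4 progenitor-marked adult cells, 2 genes of the set were 4-fold or more higher (Wnt4 and Wnt5a) and 3 lower (Wnt5b, Fzd1 and Tcf7l2), against 30.6% and 7.8% of all genes. With 4 cells on one side, a high share of genes without reads there gives bounds, and the median over all genes was 1.38. The Fzd1 value, -8.47 (-9.93 to -7.32), came from cell 11 alone. Of the 57 other pathway genes, 17 were 4-fold higher and 7 lower, with a median of 0.38. The rule named Apc, an intracellular inhibitor (7.42), Wls, the carrier that brings Wnt ligands to the surface (7.40 or more), and the receptor Ryk (5.40 or more) on the mature side. It named Fzd7 (-5.08), the inhibitor Sfrp4 (-3.75) and Tcf7l1 (-3.35) on the progenitor side, where the reads of Sfrp4 and Tcf7l1 came from 1 cell each.

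The same lineage question was asked within the pregnancy cells. 4 genes were 4-fold or more higher in basal-marked cells, against 17.1% of all genes, namely Wnt6 (2.41 or more), Sfrp1 (2.01, 1.66 to 2.38), Dkk3 (2.98, 2.57 to 3.43) and Fzd1 (3.34, 2.78 to 3.95). 2 were 4-fold or more lower, against 9.79% of all genes, namely Wnt4 (-2.13, -3.38 to -1.04) and Wnt10a (-2.58, -8.14 to 0.58), the latter from 1 read against 5. Sfrp1 and Dkk3 were 0.37 and 0.38 in cells with title numbers up to 55 and 4.84 and 5.05 from 56 on. Their 4-fold difference was thus present in the higher title numbers and not in the lower ones. In the lower numbers cell 39, which carried fibroblast markers, held 80.5% of the luminal-marked Dkk3 reads. The part of such cells and of milk reads in this split was not tested. For Fzd1 the values were 2.09 and 5.77 or more (no luminal-marked read from 56 on), for Wnt4 -1.67 and -3.13, and for Wnt6 the bounds were 1.91 and 0.51. Wnt5a was -1.62 (-1.87 to -1.38) in the pooled cells, 3.18 in numbers up to 55 and -2.07 from 56 on. Markers of the classes were not genes of the set. Of the 57 other pathway genes, 13 were 4-fold higher and 4 lower, with a median of 0.87 against 0.33 over all genes passing the filter.

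The rule named 2 secreted inhibitors on the basal side of the pregnancy cells, Wif1 with 351 CPM in 32 of 45 cells (9.67 or more) and Sostdc1 with 104 CPM in 27 of 45 cells (7.92 or more), both without a read in luminal-marked cells. The receptor Fzd3 followed with 182 and 14.4 CPM (3.67, 3.37 to 3.97). On the luminal side were Rspo1 with 36.7 and 1.44 CPM (-4.67, -5.64 to -3.84) and the receptor Fzd6 with 54.1 and 7.10 CPM (-2.93, -3.35 to -2.53). Rspo1 thus lay with luminal cells at both stages.

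Stage was compared within each lineage. The adult cells were sorted by lineage, while the pregnancy cells were unsorted and classed by markers. Differences of sorting, class makeup or capture therefore cannot be told apart from stage in any of the stage ratios. Milk protein genes took 12.5% of the reads of basal-marked and 27.5% of those of luminal-marked pregnancy cells, against 1.25% in adult luminal cells. This lowers the CPM of the other genes. Between pregnancy basal-marked and adult basal cells, 0 of the 10 genes were 4-fold or more higher and 3 lower (Wnt6, Wnt10a and Axin2), against 17.0% and 9.69% of all genes. With milk genes left out of the totals these 3 log2 ratios were -2.65, -7.59 and -5.84. Of the 57 other pathway genes, 9 were 4-fold higher and 4 lower, with a median of -0.20 against -0.09 over all genes. Lgr5 was the named gene on the adult side, with 163 and 8.66 CPM (-4.24, -4.59 to -3.90) and 29 of 85 against 1 of 45 cells, and 1 cell held 95.8% of the pregnancy reads. On the pregnancy side were Dvl3 (44.9 and 5.82 CPM; 2.95, 2.70 to 3.20), the secreted inhibitor Sfrp2 (41.6 and 5.85 CPM; 2.83, 2.58 to 3.09) and Sostdc1 (104 and 26.0 CPM; 2.01, 1.87 to 2.14).

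Between pregnancy luminal-marked and adult luminal cells, 3 genes were 4-fold or more higher (Wnt10a, Sfrp1 and Dkk3) and 1 lower (Wnt4), against 8.91% and 18.8% of all genes. The Wnt10a value (2.57 or more) rested on the 5 reads of cell 21. TMM scaling added 0.60 to every ratio of this comparison, which left Wnt4 at -2.72 and turned Tcf7l2 from -0.14 to 0.46. No pathway gene outside the set met the naming rule in this comparison, and of the 57 others 6 were 4-fold higher and 8 lower, with a median of -0.52 against -0.71 over all genes.

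The genes whose per-cell levels ran most closely with a ligand were taken as the 3 highest Spearman correlations, as a description without a test. Over the 41 adult luminal cells and 5786 genes detected in 20% or more of them, Wnt4 was closest to Fbxo6 (0.65), Pgr (0.65) and Inpp5k (0.64), and Wnt5a to Diaph2 (0.63), Senp5 (0.63) and Wfdc2 (0.62). Over the 85 adult basal cells and 3906 genes the highest values were lower. They were 0.45 for Wnt6 (with Mrpl53), 0.45 for Wnt10a (with Prpf38b) and 0.39 for Wnt5b (with Tnfaip1), in vectors that are mostly 0. The cells of a sort share their depth range, and deeper cells detect more of every gene.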

How the data were processed

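Single mammary epithelial cells were captured on the Fluidigm C1 system, and each library was 1 cell. Per the labels, the submitters' processing notes name Subread 1.4.6 and featureCounts with the mm10 build, and the deposited files hold raw read counts per Entrez gene made by the authors with no normalization. Of 27179 gene identifiers, 25138 were kept; those left out were 122 ribosomal protein genes (1.70% of reads), 15 mitochondrial genes (9.54%) and 1904 identifiers with no symbol (1.20%). Cells with 50000 or more reads were used, 53967 to 1290896 reads per cell, and no 2 cells had identical counts.

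The labels name no animal, so counts were summed over the cells of a group and scaled to CPM, and no test was run. Levels, shares and ratios have exact 95% intervals (Poisson, Clopper-Pearson and conditional binomial). Where the cells of a group had no read, 3 counts stood for their sum, which makes the ratio a bound. Differences of 4-fold or more were counted among 15315 genes with 1 CPM or more in 3 or more cells. Cells were classed by 12 markers per list with a margin of 3, and no doublet caller was run. From a list of 87 pathway genes, the text names the 4 highest and 4 lowest past 4-fold with 10 CPM and 25% of cells in the higher group. The 10 genes, the lists, the title number split and the rules were chosen with earlier results of these data known. Alternatives covered scaling, cell minimums, weighting, marker margins, title numbers and leaving out cells. Leaving out cells with markers of other types or of mixed lineage at pregnancy, and comparing the luminal subclasses across stages, were added after the data were seen. Promoter windows came from RefSeq (GRCm38.p6). Python 3.11.15, numpy 2.4.6, pandas 2.3.3, scipy 1.17.1, matplotlib 3.10.9 and, for TMM, R 4.3.3 with edgeR 4.0.16 were used, and the scripts were tested on simulated data.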

Additional observations from a re-analysis of the deposited data

Results flagged for a closer look

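Wnt10a had stage ratios of opposite direction in the 2 lineages. Its log2 ratio was -7.79 in pregnancy basal-marked over adult basal cells and 2.57 or more in pregnancy luminal-marked over adult luminal cells. The difference between these values was not tested, and the pregnancy values rest on 1 read in 1 basal-marked cell and 5 reads in 1 luminal-marked cell that also detected 8 of 12 basal markers.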

How the results depend on the processing

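Counts of the 10 genes past 4-fold stayed within 1.5 times the main count in 102 of 122 recomputations. In mature luminal-marked over progenitor-marked cells, the 3 lower genes were 1 without cells carrying markers of other types. In pregnancy basal-marked over luminal-marked cells, the 4 higher genes were 2 in title numbers up to 55. The 2 lower genes there were 1 with equal weight per cell, without the cell with the most reads, with 100000 or more reads, with a margin of 6 markers or without cells carrying markers of other types, and 0 in title numbers up to 55 or without mixed-lineage pregnancy cells. In pregnancy basal-marked over adult basal cells, the count of higher genes went from 0 to 1 without the cell with the most reads, and the 3 lower genes were 5 with a margin of 6 or at 2-fold. In pregnancy luminal-marked over adult luminal cells, the 3 higher genes were 1 within progenitor-marked cells. The 1 lower gene was 3 without the cell with the most reads or at 2-fold, and 2 with 100000 or more reads, with a margin of 6, in either part of the title numbers or without cells carrying markers of other types. Wnt4 turned there to 1.52 within progenitor-marked cells, where 4 adult cells without a read set the bound. Apart from the 2-fold threshold and the smaller cell sets, the cause was not tested. Of 467 log2 ratios 266 moved by less than their counting interval, as did 170 of 200 shares. No paired analysis was possible because the numbers in the labels only name cells and no test was run. Depth limits the scarce genes, since a group without a read allows up to 3 counts.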
